A study of Mus musculus with 32 samples.

Results

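The comparison described here is between Sertoli cell polysomes of mice given cetrorelix and of mice given acyline, 4 arrays of the 32 in the series: 2 cetrorelix IPs and 2 acyline IPs, taken by their sample titles. All 4 came from testes of AMH-Cre: RiboTag mice, in which Cre recombinase driven by the anti-Müllerian hormone promoter switches on a hemagglutinin (HA) tag on a ribosomal protein. An anti-HA immunoprecipitate (IP) of the testis homogenate then carries the mRNAs bound to Sertoli cell ribosomes, and the homogenate before precipitation is the input. Beside these arrays stand 2 IPs of cetrorelix+testosterone, 2 IPs of acyline+FSH at 1 h and 2 at 4 h, 5 saline IPs and 5 saline inputs of the same mouse line, all from adult mice. Mice given testosterone were killed 4 h after it, by the study's methods. Per the study's methods cetrorelix was the antagonist of the testosterone experiment and acyline that of the FSH experiment, and the mass injected was lower for cetrorelix. The antagonist, its dose and the experiment therefore cannot be told apart. The methods add that the mice used for arrays in both experiments were ones whose serum testosterone and FSH had been checked, so the arrays come from mice selected on hormone levels. Their genetic background, on chromosome 19 or elsewhere, is not in the labels, and its part in the results was not tested. The labels do not say to which experiment each saline mouse belonged, and on the cetrorelix arrays the source label reads input where title and sample type read IP.

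Both compounds are peptide antagonists of the gonadotropin-releasing hormone (GnRH) receptor. Blocking that receptor in the pituitary withdraws luteinizing hormone (LH) and follicle-stimulating hormone (FSH), and with LH the testosterone made by Leydig cells. Sertoli cells, the nurse cells of the seminiferous tubule, respond to FSH and to testosterone, and are the testis cells through which both hormones act on spermatogenesis. A difference between the antagonist arms would show as transcripts whose polysome association depends on which compound, or which experiment, a mouse was in.

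Only 1 of 24648 probe sets tested was called between cetrorelix and acyline (0.00406%), a call being a 1.5-fold difference or more with an adjusted p below 0.05. It measures Pyroxd2, the gene of a mitochondrial protein with an oxidoreductase domain, and was lower in cetrorelix. No probe set was higher by this rule. At an unadjusted p under 0.05, 2000 probe sets (8.11%) differed, 1052 higher (4.27%) and 948 lower (3.85%) in cetrorelix. Adding the 1.5-fold limit left 262 (1.06%), 122 higher (0.495%) and 140 lower (0.568%). Of these 262, 50 name 1 gene, 6 name several and 206 are unlisted in the probe annotation, whereas 68.8% of all probe sets tested name 1 gene. The plot of all probe sets tested shows Pyroxd2 away from the rest.

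**Figure D1:**
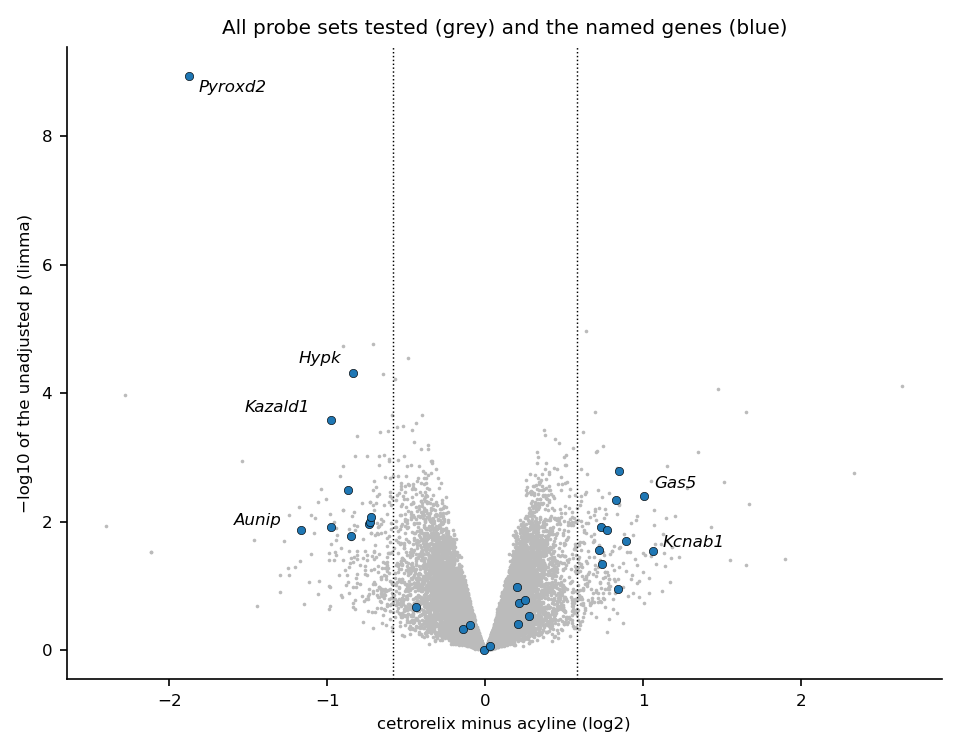
Difference between cetrorelix and acyline (horizontal axis, log2) against −log10 of the unadjusted limma p (vertical axis) for 24648 probe sets (grey) and the named genes (blue); dotted lines mark 1.5-fold. Pyroxd2 lies alone at the upper left with a log2 difference of -1.87.

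Array to array spread bounds what can be seen. The median standard error of a log2 difference was 0.1275 and the median absolute difference 0.109. The acyline arrays correlated at 0.991 with each other over all probe sets tested and differed by more than 1.5-fold in 816 of them. For the cetrorelix arrays the correlation was 0.9852, with 1507 probe sets more than 1.5-fold apart. Correlations across the antagonists lay between 0.9864 and 0.9886, with 1092 to 1288 probe sets more than 1.5-fold apart, so the cetrorelix arrays were no more like each other than like the acyline arrays. Saline IPs 1 to 3 were about as like the one group as the other, with mean correlations of 0.988 to 0.9892 to acyline and 0.9883 to 0.9893 to cetrorelix. Saline IPs 4 and 5 lay nearer to acyline, at 0.9912 and 0.9907 against 0.9873 and 0.9862. These correlations are over probe sets, which are not independent replicates.

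The Pyroxd2 signal, on the log2 scale of the deposited values, was 7.92 and 7.95 in the acyline IPs and 6.14 and 5.99 in the cetrorelix IPs. Both cetrorelix arrays therefore lay far below both acyline arrays, by 3.66-fold (log2 -1.87, SE 0.11, 95% interval -2.12 to -1.63, adjusted p = 2.81e-05 by limma). With only the 4 arrays of these groups in the fit the difference was not called (adjusted p = 0.292). In the saline IPs the signal was 8.25, 8.12, 7.97, 7.88 and 7.92, the level of the acyline arrays. Saline inputs 1, 2, 3 and 5 read 6.61, 6.48, 6.49 and 6.52, and input 4 read 5.57, so Pyroxd2 was enriched in the saline IPs over inputs by a log2 of 1.69 (adjusted p = 2.86e-06). Both cetrorelix IPs thus lay below 4 of the 5 whole-testis inputs and above input 4.

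Low Pyroxd2 signal was not confined to cetrorelix. Acyline+FSH at 4 h read 6.06 and 6.05, as low as cetrorelix, whereas acyline+FSH at 1 h read 8.03 and 8.02. The cetrorelix+testosterone arrays, from mice given the same antagonist, read 8.13 and 8.17, which is the level of saline. Against saline, cetrorelix was lower (log2 -1.96, adjusted p = 2.04e-06), and acyline differed by -0.09 (SE 0.09, adjusted p = 0.98). These contrasts share the saline arrays. Of the 15 Sertoli IP arrays, then, 4 read 6.14 or less and the rest 7.88 or more, with no array between.

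The arrays of the hormone-treated mice allow the antagonists to be compared in animals not used above, with the added hormone differing as well. Cetrorelix+testosterone against the mean of acyline+FSH at 1 h and 4 h gave 2 called probe sets of 24648 (0.00811%), 1 higher and 1 lower. Pyroxd2 was the higher of them, at a log2 of 1.11 (SE 0.10, adjusted p = 0.00205), which is the opposite direction to the comparison without hormone. The mean joins unlike groups, since acyline+FSH at 1 h was near cetrorelix+testosterone and at 4 h far below. Only the 4 h FSH arrays match the 4 h after testosterone. Without the 1 h arrays the Pyroxd2 difference was 2.095 (adjusted p = 4.56e-05). Without cetrorelix+testosterone replicate 2 it was 1.088 and not called (adjusted p = 0.107). The lower is a probe set of Pde4d, a cyclic AMP phosphodiesterase, at -1.24 (adjusted p = 0.0308), with 7.76 and 7.91 in acyline+FSH at 4 h, 6.20 and 6.29 at 1 h, and 5.70 and 5.91 in cetrorelix+testosterone. Without hormone that probe set read 5.92 and 6.52 in acyline and 6.54 and 6.57 in cetrorelix and did not differ by the test (log2 0.33, adjusted p = 0.66). At an unadjusted p under 0.05 the hormone-treated arrays gave 2523 probe sets (10.2%), 1260 higher (5.11%) and 1263 lower (5.12%), of which 277 (1.12%) passed 1.5-fold.

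Of the 50 probe sets with 1 gene that passed the unadjusted p and 1.5-fold in the comparison without hormone, 10 (20%) also passed the unadjusted p in the hormone-treated arrays in the same direction and 3 (6%) in the opposite direction. For all 262 probe sets that passed both limits, with or without a gene, the shares were 14.5% and 4.96%. Among all probe sets tested, with or without a gene, 7.62% passed that p in the direction of their own difference and 2.62% in the other. Both comparisons use 1 shared estimate of the spread, so they are not independent. All 4 cetrorelix arrays, with or without testosterone, lay above all 6 acyline arrays in 734 probe sets (2.98%) and below them in 496 (2.01%).

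Along chromosome 19 the genes with a pattern most like that of Pyroxd2 over the 15 Sertoli IP arrays were Kazald1 (r = 0.866), Entpd1 (0.839) and Col17a1 (0.825), ahead of Rhbdl2 of chromosome 4 (0.82), Hoga1 (0.801) and the other genes tested. Slc1a1, also of chromosome 19, came after genes of other chromosomes (0.782), and Myof ranked lower than Slc1a1. The genes were ranked by correlation across the 15 arrays, which share a cell type and a line of mice, and the figures are descriptive. Myof, Entpd1, Hoga1, Pyroxd2, Kazald1 and Col17a1 lie in this order on chromosome 19 in assembly GRCm38.p6.

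Promoter sequence is shown for Pyroxd2, the called gene, and for Kazald1, the gene most like it, from RefSeq on GRCm38.p6, 250 bases before to 50 after the annotated start. Capitals mark matches, on either strand, to TGACG (the shortened cyclic AMP response element) or GGGCGG (a GC box).
Pyroxd2, chr19:42752726-42753025, minus strand: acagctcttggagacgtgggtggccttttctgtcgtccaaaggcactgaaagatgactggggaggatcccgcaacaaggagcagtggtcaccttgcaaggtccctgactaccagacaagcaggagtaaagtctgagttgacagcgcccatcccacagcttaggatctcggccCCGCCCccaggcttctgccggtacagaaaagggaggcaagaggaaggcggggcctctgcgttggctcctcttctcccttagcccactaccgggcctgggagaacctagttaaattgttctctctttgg
Kazald1, chr19:45074991-45075290, plus strand: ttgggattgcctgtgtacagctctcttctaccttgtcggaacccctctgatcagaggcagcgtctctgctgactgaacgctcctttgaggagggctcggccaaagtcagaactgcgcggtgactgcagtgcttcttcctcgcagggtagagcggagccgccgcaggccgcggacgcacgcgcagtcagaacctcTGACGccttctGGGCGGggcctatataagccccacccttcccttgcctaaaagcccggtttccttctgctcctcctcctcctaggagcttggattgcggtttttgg

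The Pyroxd2 window holds 1 GC box, a motif found in 35.7% of the 32851 promoter windows of the table, and no TGACG. Kazald1 has 2 starts in the table. The window printed, of the first, holds 1 TGACG, a motif found in 20.8% of windows, and 1 GC box, and the window of the other start holds 0 TGACG and 1 GC box. The full element TGACGTCA (1.79% of windows) and the palindromic androgen response element (0.0487%) occur in neither, nor in the windows of Myof, Entpd1, Hoga1 and Col17a1. A match is a string of letters and not a measured site, and GGGCGG was added with the results known.

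Kazald1, a secreted protein with a Kazal-type protease inhibitor domain, read 8.96 and 8.90 in acyline and 8.10 and 7.81 in cetrorelix, 1.97-fold lower without overlap. The log2 difference of -0.97 (SE 0.19, 95% interval -1.39 to -0.56) did not pass the test (adjusted p = 0.394). Acyline+FSH at 4 h read 7.91 and 7.67, and the saline IPs lay between 8.44 and 8.94. Since Kazald1 ranks as most like Pyroxd2 over these same arrays, this pattern is not independent of that ranking. In the hormone-treated arrays the difference turned, at 0.78 (adjusted p = 0.338). Kazald1 is strongly enriched in Sertoli IPs (log2 2.40, adjusted p = 8.52e-08), and input 4, the input low in Pyroxd2, read 5.69 against 6.31 to 6.62 in the other inputs.

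Myof, a ferlin of membrane fusion and repair, read 6.95 and 6.97 in acyline and 6.02 and 5.94 in cetrorelix (log2 -0.98, SE 0.33, adjusted p = 0.554). The saline IPs 1 to 4 lay between 7.06 and 7.23, while saline IP 5 read 5.91, as low as cetrorelix. Cetrorelix against saline gave -0.91 (adjusted p = 0.933) with all 5 saline IPs, and was called without saline IP 5 (-1.156, adjusted p = 0.00031), with saline IPs 1 to 3 only (-1.17, adjusted p = 0.00172) and with the replicate number as a block (-1.216, adjusted p = 0.0142). Entpd1, the ectonucleotidase that degrades extracellular ATP, behaved alike: 8.68 and 8.76 in acyline, 7.95 and 7.76 in cetrorelix (log2 -0.87, SE 0.24, adjusted p = 0.531), 8.55 to 8.82 in saline IPs 1 to 4 and 7.86 in saline IP 5. In Pyroxd2 and Col17a1 saline IP 5 lay within the range of the other saline IPs, and in Kazald1 it was the lowest, at 8.44 beside 8.45 in saline IP 4. Acyline+FSH at 4 h was below acyline in both genes, at 6.39 and 6.29 for Myof and 7.71 and 7.88 for Entpd1.

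**Figure D2:**
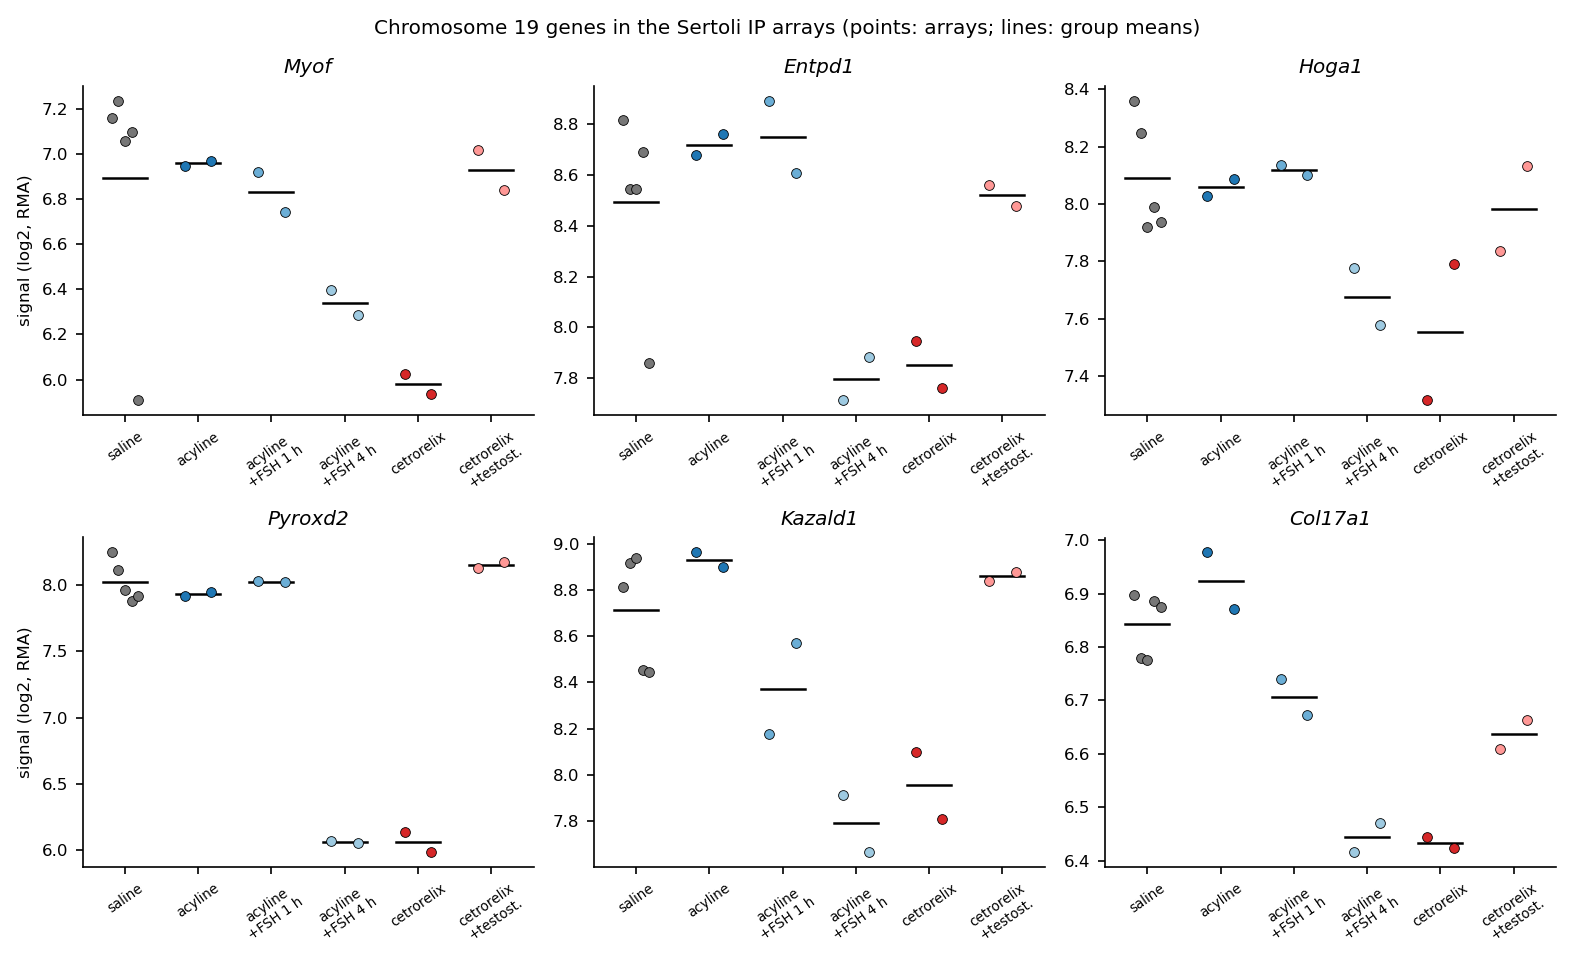
Signal (log2, vertical axes) of Myof, Entpd1, Hoga1, Pyroxd2, Kazald1 and Col17a1 in the 15 Sertoli IP arrays by group; points are arrays, ordered by replicate number, and lines are group means. Cetrorelix and acyline+FSH at 4 h have the lowest means in each gene. Kazald1, Entpd1, Col17a1 and Hoga1 rank among the genes most like Pyroxd2 over these same arrays, so this likeness is not independent of that ranking. Saline IP 5 lies apart from the other saline IPs for Myof and Entpd1.

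Col17a1, a collagen of hemidesmosomes, read 6.98 and 6.87 in acyline and 6.44 and 6.42 in cetrorelix (log2 -0.49, SE 0.08, adjusted p = 0.139). Hoga1, a mitochondrial aldolase of hydroxyproline breakdown, read 8.03 and 8.09 in acyline and 7.32 and 7.79 in cetrorelix (log2 -0.50, SE 0.18, adjusted p = 0.562). Neither passed the test, and in both the groups did not overlap, which was so in 41.1% of all probe sets tested (21.3% higher, 19.8% lower).

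Between Myof and Col17a1, 122 genes of chromosome 19 were tested. Of these, 10 were lower and 9 higher in cetrorelix at an unadjusted p under 0.05, and 4 were also lower by 1.5-fold, with 0 higher by that much. The 4 are Myof, Entpd1, Pyroxd2 and Kazald1. In the rest of chromosome 19, 0 of 391 genes passed both limits, and on the other chromosomes 18 of 14963 were higher and 14 lower. The median log2 difference over the stretch was 7e-04. The stretch was chosen after the values were seen, and no test is given for it. Whether the mice differed in genotype along it was not tested.

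**Figure D3:**
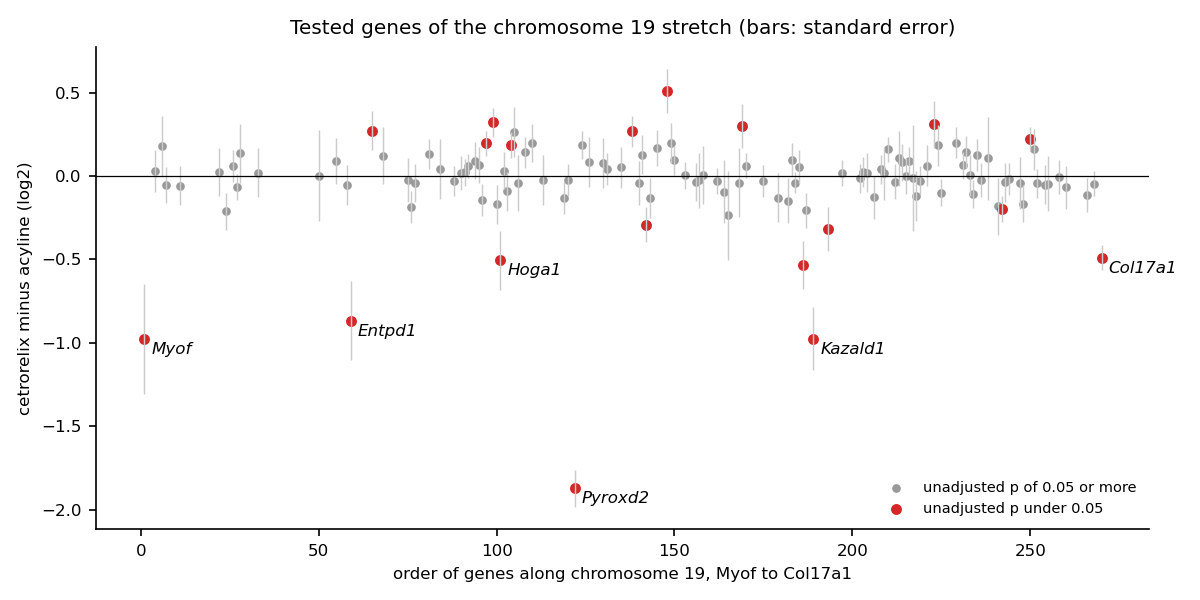
Cetrorelix minus acyline (log2, vertical axis; bars are standard errors) for the 122 tested genes from Myof to Col17a1, in chromosomal order (horizontal axis, rank). Red points have an unadjusted p under 0.05; the 4 genes lower by 1.5-fold are separated by other tested genes.

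On other chromosomes the largest differences without overlap did not pass the test. Lower in cetrorelix were Aunip (log2 -1.17), Btnl5-ps (-0.85), Hypk (-0.83), Dppa5a (-0.74), Tceal9 (-0.73) and Cetn3 (-0.72), with adjusted p from 0.179 to 0.562. Aunip, a partner of Aurora kinase A in mitosis, read 9.04 and 9.72 in acyline and 8.28 and 8.15 in cetrorelix, but 8.26 to 9.49 over the acyline+FSH arrays. Its standard error of 0.40 was the widest among the named genes lower in cetrorelix. Btnl5-ps, a butyrophilin-like pseudogene, and Dppa5a, an RNA-binding protein of early embryonic cells, had weak signals of 4.15 to 5.91 in the 4 arrays.

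Hypk, which partners an N-terminal acetyltransferase at the ribosome, had the tightest values: 9.14 and 9.16 in acyline against 8.30 and 8.33 in cetrorelix (SE 0.13, adjusted p = 0.179). All 4 acyline+FSH arrays lay high, at 8.92 or more, and both cetrorelix+testosterone arrays low, at 8.43 and 8.61 (log2 -0.44, adjusted p = 0.342). Saline IPs 1 to 3 read 8.62, 8.53 and 8.44, saline IPs 4 and 5 read 8.94 and 8.76. The inputs split in the same way, with 8.42 to 8.55 in inputs 1 to 3 and 9.23 in inputs 4 and 5. Hypk was not enriched in the IPs (log2 -0.13, adjusted p = 0.52).

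Cetn3, a centrin of the centrosome, resembled Hypk. It read 9.46 and 9.31 in acyline, 9.29 to 9.45 in acyline+FSH, 8.66 and 8.65 in cetrorelix and 8.78 and 8.66 in cetrorelix+testosterone. Saline IPs 1 to 3 read 8.76 to 8.80 and saline IPs 4 and 5 read 9.56 and 9.35, so the saline arrays reach both levels. Its inputs 1 to 3 read 9.55 to 9.75, and inputs 4 and 5 read 10.58 and 10.475. Tceal9, an X-linked gene of the TCEAL family, read 9.67 and 9.74 in acyline and 9.04 and 8.92 in cetrorelix, with saline IPs 1 to 3 at 8.71 to 9.11 and saline IPs 4 and 5 at 9.65 and 9.34. Its acyline+FSH arrays at 1 h read 9.28 and 9.18, close to saline IP 1 at 9.11. The inputs of Tceal9 read 7.38 to 7.83 in inputs 1 to 3 and 8.47 and 8.20 in inputs 4 and 5. For these 3 genes all 4 cetrorelix arrays lay below all 6 acyline arrays, as in 2.01% of all probe sets tested. The part of the experiment in this split was not tested, since the labels give no experiment for the saline mice.

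**Figure D4:**
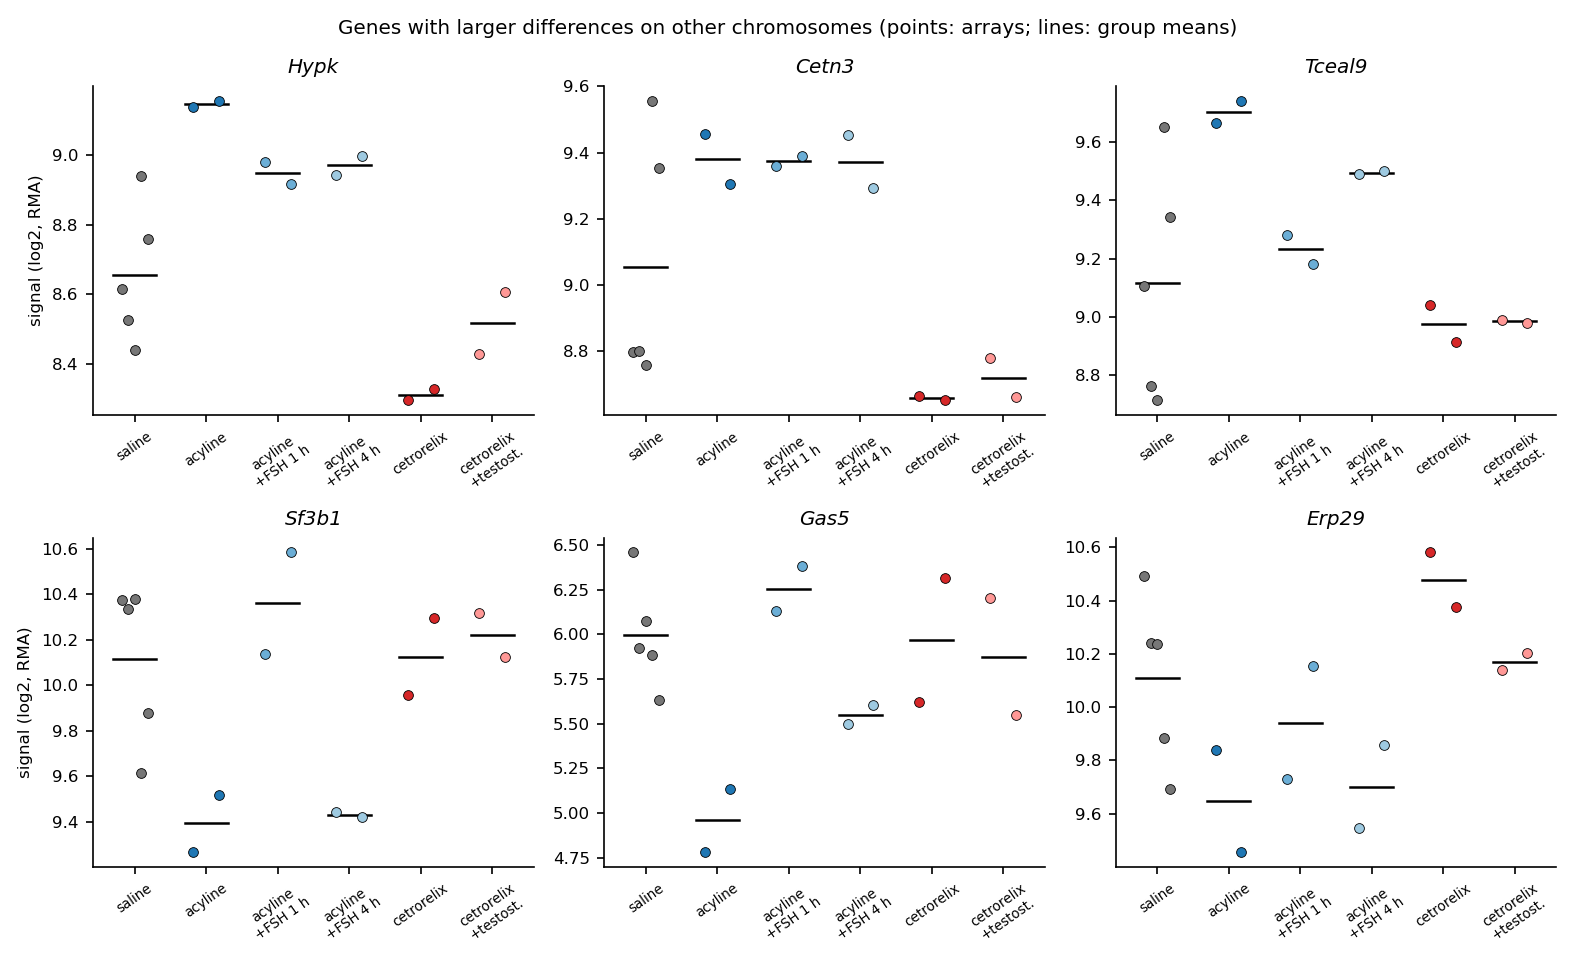
Signal (log2, vertical axes) of Hypk, Cetn3, Tceal9, Sf3b1, Gas5 and Erp29 in the 15 Sertoli IP arrays by group; points are arrays, ordered by replicate number, and lines are group means. In Hypk, Cetn3 and Tceal9 the 6 acyline arrays and saline IPs 4 and 5 lie above the 4 cetrorelix arrays and saline IPs 1 to 3.

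Higher in cetrorelix, none past the test, were Kcnab1 (log2 1.06), Gas5 (1.01), Adgrl2 (0.89), Ect2l (0.85 and 0.77 in its 2 probe sets), Oasl2 (0.84), Erp29 (0.83), Snora73b (0.74), Sf3b1 (0.73) and Snora73a (0.72), with adjusted p from 0.531 to 0.684. Gas5, a noncoding RNA that hosts small nucleolar RNAs and is degraded through translation, read 4.78 and 5.14 in acyline and 5.62 and 6.32 in cetrorelix. The saline IPs read 5.64 to 6.46, so that cetrorelix array 1 lay just below them and array 2 within them. Acyline against saline gave -1.04 (adjusted p = 0.871) where cetrorelix against saline gave -0.03. Snora73a and Snora73b, near-identical small nucleolar RNAs, differed alike. Snora73a read 7.55 and 7.50 in acyline and 7.98 and 8.51 in cetrorelix, and Snora73b read 7.62 and 7.37 against 7.97 and 8.49. Their probe sets cannot be counted as independent. Over acyline+FSH at 1 h they read 8.60 to 9.03, higher than in either antagonist alone.

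Sf3b1, a core protein of the spliceosome, read 9.27 and 9.52 in acyline and 9.96 and 10.30 in cetrorelix. Its saline IPs 1 to 3 read 10.335 to 10.381, and saline IPs 4 and 5 read 9.62 and 9.88. Erp29, a chaperone of the endoplasmic reticulum, read 9.84 and 9.46 in acyline and 10.58 and 10.38 in cetrorelix. Its saline IPs 1 to 3 read 10.24 to 10.49, and saline IPs 4 and 5 read 9.885 and 9.69. In both genes the acyline arrays were the lowest or near the lowest of the IPs without FSH. The saline IPs divided as in Hypk, here with IPs 4 and 5 below IPs 1 to 3, so low values were not confined to acyline. Kcnab1, a potassium channel subunit, was uneven within acyline, at 6.84 and 5.46, and read 7.33 and 7.10 in cetrorelix. Adgrl2, an adhesion receptor of the latrophilin family, was higher in cetrorelix than in any saline IP: 6.65 and 6.60 against 5.13 to 5.85 in the saline IPs and 5.49 and 5.99 in acyline (cetrorelix against saline log2 1.11, adjusted p = 0.933). Oasl2, an interferon-induced gene, had a 95% interval of -0.22 to 1.90.

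By p-value rather than size, the genes after Pyroxd2 were Rhbdl2 (log2 -0.71, SE 0.10, adjusted p = 0.112), Col17a1, Hypk, Gmnn (-0.57, SE 0.09, adjusted p = 0.184) and Wfdc8 (0.70, SE 0.13, adjusted p = 0.361). These were chosen after their values were seen. Rhbdl2, a rhomboid protease, read 6.02 and 6.13 in acyline and 5.35 and 5.37 in cetrorelix, below the 5.71 to 6.15 of every other Sertoli IP. Wfdc8, a whey acidic protein type protease inhibitor, read 6.76 and 6.79 in acyline and 7.50 and 7.44 in cetrorelix, above the 6.65 to 7.14 of every other Sertoli IP. Gmnn, the inhibitor of replication licensing, read 6.14 and 6.21 in acyline and 5.56 and 5.65 in cetrorelix, and 5.72 to 6.06 elsewhere. In the hormone-treated arrays the 3 genes differed by 0.02, 0.03 and -0.04, so no difference between the antagonists was detectable there.

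Transcripts that define Sertoli cells were alike in the 2 groups within the spread. Of 25 Sertoli markers tested, of which 24 are enriched in the saline IPs by 2-fold, 0 were higher and 2 lower at an unadjusted p under 0.05 and the median log2 difference was 0.0076. Over all 15476 genes with 1 symbol, 699 were higher and 496 lower by this p (7.72%) with a median of 0.0155. The 2 lower were Trf, the iron carrier transferrin, at 11.35 and 11.20 in acyline and 10.88 and 10.72 in cetrorelix (log2 -0.47, SE 0.20, adjusted p = 0.592), and Cst9, a cystatin, at -0.30 (SE 0.09, adjusted p = 0.55). The FSH receptor Fshr, the route by which FSH reaches these cells, differed by 0.21 (95% interval -0.12 to 0.55). Median levels of the marker list were 10.87 and 10.72 in cetrorelix and 10.85 and 10.80 in acyline.

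Peptide hormones of the Sertoli cell showed no call. Inha, the alpha subunit of inhibin that holds back pituitary FSH, differed by 0.20 (95% interval -0.05 to 0.45), Inhbb, its beta subunit, by -0.09 (-0.33 to 0.14) and Amh, anti-Müllerian hormone, by 0.03 (-0.31 to 0.37). Among 22 genes of inhibin, activin and AMH signaling 1 was higher and 1 lower at the unadjusted p (9.09%, median -0.0204). The share over all genes with 1 symbol was 7.72%. The higher was Fstl3, a binding protein of activin, at 10.29 and 10.22 in acyline and 10.87 and 10.61 in cetrorelix (log2 0.49, adjusted p = 0.581). Fstl3 read 10.87 or more in saline IPs 1 to 3 and 10.35 and 10.41 in saline IPs 4 and 5, the split seen in Hypk. The lower was Tgfbr3, betaglycan, a coreceptor of inhibin, at -0.39.

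The lists of genes that respond to the withdrawn hormones held 0 calls, where 1 of 24648 probe sets was called in all. At the unadjusted p the share over all genes with 1 symbol was 7.72%. Lists this short would hold few such genes in any case, so their counts do not set them apart. Pyroxd2, which the study reports as raised by testosterone, is not a member of them. Among 14 androgen-responsive Sertoli genes, 13 of them enriched, 2 were higher and 0 lower at the unadjusted p (median 0.081): Tubb3, a neuronal-type tubulin (log2 0.28), and Slc38a5, a glutamine transporter (0.28), both at an adjusted p of 0.586. Slc38a5 read 10.30 and 10.36 in acyline and 10.72 and 10.51 in cetrorelix. Its saline IPs 1 to 3 read 10.62 to 10.70, and saline IPs 4 and 5 read 10.48 and 10.55. Of 21 FSH and cyclic AMP response genes 0 passed the unadjusted p in either direction (median 0.0116). Of 36 receptors and parts of the cyclic AMP machinery, Rapgef3, a cyclic AMP sensor, was higher by 0.31 and Adcy5, an adenylyl cyclase, lower by a log2 of -0.33. Immediate early genes numbered 35 with 0 at the unadjusted p, and glucocorticoid response genes 15 with 0.

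Genes that the study names for hormone response in Sertoli cells were also compared. Pyroxd2, Kazald1 and Myof, described above, are among them. The study reports these genes and Slc15a1 as raised by testosterone, in its arrays and by qRT-PCR. Slc15a1, a peptide transporter, read 8.29 and 7.91 in acyline and 7.93 and 7.40 in cetrorelix (log2 -0.43, 95% interval -1.15 to 0.28), so the arrays overlapped. Eomes, a T-box factor, differed by -0.00 only as the mean of 8.30 and 7.53 in cetrorelix against 7.87 and 7.96 in acyline. Reln, a secreted glycoprotein, differed by -0.14 (-0.56 to 0.28), and Chst2, a sulfotransferase, by 0.21 (-0.30 to 0.71). The more abundant Pde4d probe set differed by 0.25 (-0.12 to 0.62).

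Markers of other testis cells were measured for carryover into the IPs. Leydig markers, low in both antagonist groups, gave 1 of 11 higher at the unadjusted p (9.09%, against 7.72% of all genes with 1 symbol). It was Hsd3b1, a steroid dehydrogenase, at 0.51 (adjusted p = 0.61). The median level of the Leydig markers was 7.70 and 7.58 in cetrorelix, 7.38 and 7.35 in acyline and 7.999 to 8.346 in the saline IPs. Cyp11a1, which makes pregnenolone from cholesterol, read 5.57 and 6.12 in cetrorelix, 5.24 and 5.90 in acyline and 7.04 to 7.77 in saline. It was the 1 probe set called in acyline against saline (0.00406%; log2 -1.79, adjusted p = 0.0497), and cetrorelix against saline gave -1.51 (adjusted p = 0.0653) with 3 probe sets called in all (0.0122%). The Cyp11a1 call in acyline was lost when any of the saline IPs or acyline replicate 1 was left out. At an unadjusted p under 0.05, 1229 probe sets (4.99%; 2.67% higher, 2.32% lower) differed from saline in cetrorelix and 1234 (5.01%; 2.5% higher, 2.5% lower) in acyline. With 1.5-fold added, the shares were 0.552% and 0.653%. The difference between the antagonists in Cyp11a1 was 0.28 (-0.27 to 0.83). Fewer Leydig cells carried over and less RNA per cell cannot be told apart in these bulk samples.

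Spermatogonial and spermatocyte markers varied more within cetrorelix than between the antagonists. The median level of 21 spermatogonial and spermatocyte markers was 7.92 and 8.41 in cetrorelix and 8.01 and 8.22 in acyline. Of these, 0 were higher and 1 lower (Pgk2, a germ cell glycolytic enzyme, at -0.47), and of 20 spermatid markers 0 were higher and 1 lower. The median level of the spermatid markers was 9.76 and 9.753 in cetrorelix and 9.95 and 9.749 in acyline. Macrophage markers gave 0 higher and 2 lower of 12, namely Cx3cr1 (-0.53) and Lyz1 (-0.38), while C1qa, Csf1r and Cd68, further macrophage genes, had folds of 1.10, 0.999 and 0.998. Peritubular myoid (9 tested), endothelial (10) and red blood cell genes (2) gave 0 at the unadjusted p. Over all genes with 1 symbol 7.72% passed that p, so counts this small do not set a list apart.

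In the remaining gene groups 0 genes were called, where 1 of 24648 probe sets was called in all. The counts that follow are at the unadjusted p, which 7.72% of all genes with 1 symbol passed. Tight junction and ectoplasmic specialization genes, which build the blood-testis barrier, gave 0 of 26. Glycolysis and lactate genes, by which Sertoli cells feed germ cells, gave 1 lower of 22 (Pgk1, -0.31). Cholesterol synthesis gave 1 higher and 1 lower of 22, steroidogenesis 1 higher of 13, extracellular matrix 3 higher and 1 lower of 34, ATF4 response and amino acid transport 2 higher of 29, heat shock genes 1 lower of 17 and interferon response genes 1 lower of 17. Circadian clock genes gave 1 higher of 18, Arntl, the clock factor BMAL1, at 0.36.

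Arntl read 7.73 and 7.84 in acyline, 7.74 to 7.83 in acyline+FSH, 8.22 and 8.06 in cetrorelix and 7.95 and 8.15 in cetrorelix+testosterone. Saline IPs 1 to 3 read 8.15 to 8.30 and saline IPs 4 and 5 read 7.79 and 7.92, again divided between the levels. Ribosomal protein genes gave 0 higher and 5 lower of 60 (8.33%), with a median of -0.0027. Small nucleolar RNAs gave 4 higher and 0 lower of 27 (14.8%, median 0.0744), of which 3 passed 1.5-fold: Snora73a, Snora73b and Snord104. Snord104 read 5.57 and 5.66 in acyline and 6.21 and 6.27 in cetrorelix (log2 0.62, adjusted p = 0.406). Its saline IPs 1 to 3 read 6.14 to 6.37, and saline IPs 4 and 5 read 5.945 and 6.04. Between the cetrorelix arrays themselves the median difference of this list was -0.41. Olfactory and vomeronasal receptors, not known for a role in Sertoli cells, gave 1 higher and 2 lower of 104 (2.88%).

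**Figure D5:**
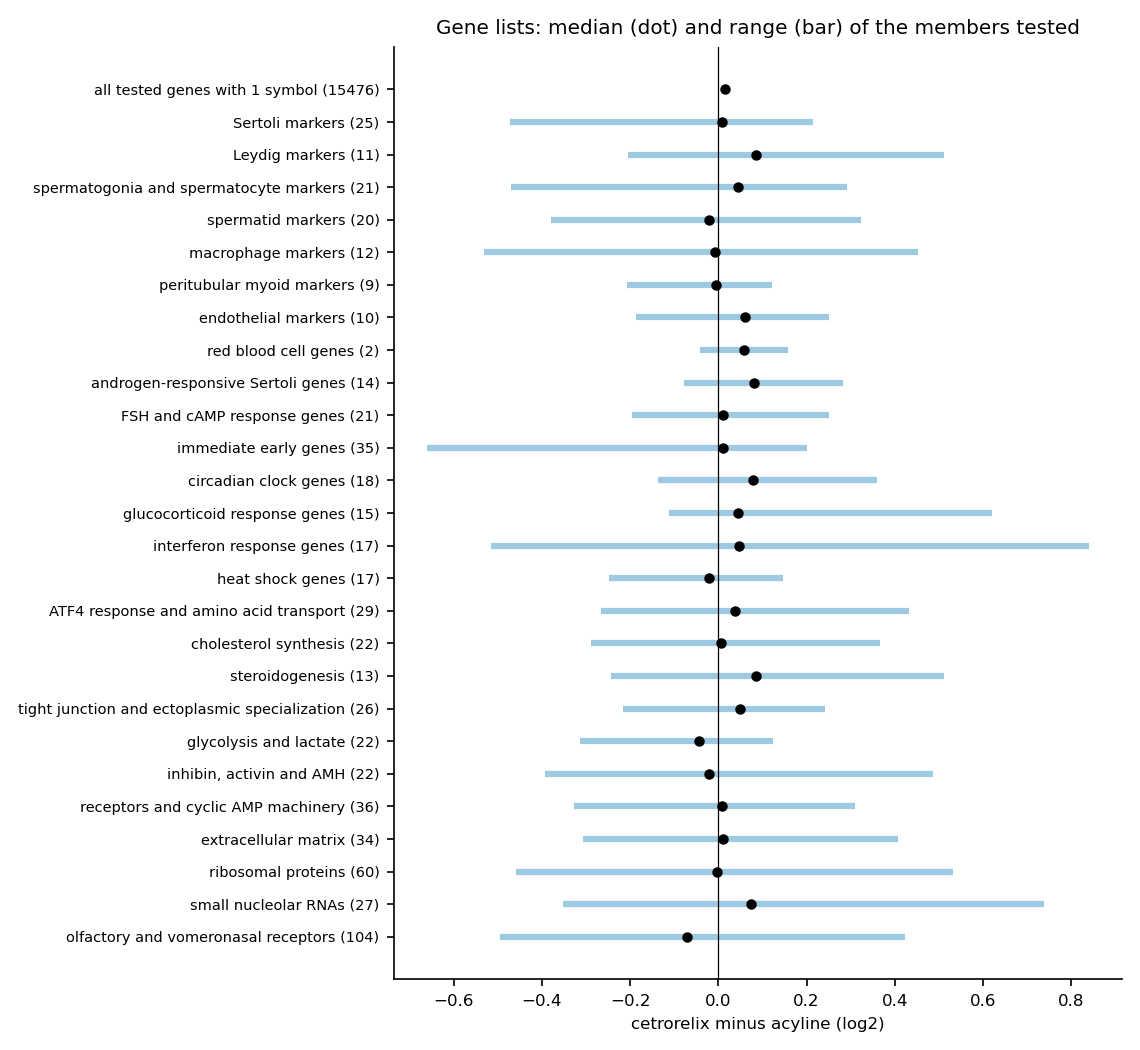
Cetrorelix minus acyline (log2, horizontal axis) for each gene list, with the number of genes tested in brackets; dots are medians and bars run from the lowest to the highest member. Medians lie between -0.07 and 0.09, against 0.0155 for all genes with 1 symbol.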

How the data were processed

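RNA of AMH-Cre: RiboTag testes was hybridized to Affymetrix Mouse Gene 1.0 ST arrays, 1 array per sample. The authors normalized the arrays with RMA (version not given in the sources used here) and deposited log2 values for 35556 probe sets; 21789 name 1 gene symbol, 1621 several and 12146 are unlisted. Values were used as deposited. The number of arrays limits the precision.

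Probe sets with a linear signal over 50 in at least 1 array were tested with limma 3.58.1 in R 4.3.3, in a linear model of 6 groups over all 15 Sertoli IPs (9 residual degrees of freedom), and IP against input in saline (8 residual degrees of freedom). Adjusted p-values are Benjamini-Hochberg over all probe sets tested. Calls needed an adjusted p under 0.05 and 1.5-fold, or 2-fold for enrichment. An exact permutation test of 2 arrays against 2 cannot go below p = 0.333. The tests were tried on simulated data.

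Named genes are the called ones, the 10 largest differences without overlap in each direction, and genes fixed by name: hormone response genes, receptors and Sertoli hormones. Rhox5, also fixed by name, is not analysed here. The probe set with the highest mean stands for a gene in lists. Same-numbered replicates were not treated as pairs. Members and lists were chosen with earlier results of these data known. Python 3.11.15 and matplotlib 3.10.9 drew the figures. Alternatives are in the closing section.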

Additional observations from a re-analysis of the deposited data

Results flagged for a closer look

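The difference between the antagonists in Pyroxd2 passed the test of the difference itself, at a log2 of -1.87 for cetrorelix minus acyline. In 6 of 60 groups of 5 saline arrays, 1 array lay far from the other 4 by Dixon's criterion for the named genes, where chance gives about 1 in 20. Pyroxd2 in saline input 4 read 5.57, against 6.48 to 6.61 in the other inputs. Myof in saline IP 5 read 5.91, against 7.06 to 7.23 in the other saline IPs, and Entpd1 in the same IP read 7.86, against 8.55 to 8.82. Eomes in saline IP 4 read 7.18, against 7.95 to 8.21. Snora73a in saline IP 1 read 7.42, against 7.97 to 8.15, and Snora73b in the same IP read 7.35, against 8.09 to 8.38. The cause of these values was not tested.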

How the results depend on the processing

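Pyroxd2 was lower in cetrorelix than in acyline under all 16 settings (log2 -1.948 to -1.797) and was called in 15. The 15 include settings with an unadjusted p or another fold limit, which refit nothing. In all 15 the spread was estimated with other groups in the fit. Pyroxd2 was not called when only the 2 groups compared were fitted (adjusted p = 0.292), where 0 probe sets were called. Fitted in that way, cetrorelix+testosterone against acyline+FSH and acyline against saline also gave 0, and cetrorelix against saline gave 1. Without the multiple-test adjustment, calls numbered 262, 277, 136 and 161 for cetrorelix against acyline, cetrorelix+testosterone against acyline+FSH, cetrorelix against saline and acyline against saline, and 178, 205, 95 and 113 with ordinary contrasts. Ordinary contrasts with adjustment gave 1, 1 and 0 in the last 3 comparisons, and no signal filter likewise gave 1, 1 and 0. With a filter of 100 in at least 2 arrays, the saline comparisons gave 1 and 3. Acyline against saline gave 0 calls after median centring, after quantile normalization and without the FSH 1 h arrays (1 for cetrorelix against saline). With saline IPs 1 to 3 only it gave 8. Among them were Hypk (log2 0.618, adjusted p = 0.0459), Cetn3 (0.596, adjusted p = 0.0477) and Tceal9 (0.842, adjusted p = 0.0497).

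Replicate numbers are shared by the groups, but nothing in the labels says that they pair mice. With the replicate block, cetrorelix against acyline kept 1 call (Pyroxd2, adjusted p = 0.000523), cetrorelix+testosterone against acyline+FSH gave 1, cetrorelix against saline 2 (Pyroxd2 and Myof) and acyline against saline 0. The deviations of same-numbered acyline and cetrorelix arrays correlated at 0.118.

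Leaving out 1 array at a time gave 1 to 2 calls for cetrorelix against acyline (2 without acyline replicate 2), 0 to 4 for cetrorelix+testosterone against acyline+FSH (0 without cetrorelix+testosterone replicate 2, 4 without replicate 1, 1 without any single acyline+FSH array), 1 to 4 for cetrorelix against saline (1 without cetrorelix replicate 1, saline 3 or saline 4, 2 without saline 1 or 5) and 0 to 2 for acyline against saline (2 without acyline replicate 2, otherwise 0). Without cetrorelix+testosterone replicate 2, Pyroxd2 was 1.088 (adjusted p = 0.107), and without the FSH 1 h arrays 2.095.

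Signs turned only in differences that were not called. For cetrorelix against acyline, leaving out arrays gave log2 ranges of -0.057 to 0.117 (Amh), -0.054 to 0.608 (Cyp11a1), -0.391 to 0.383 (Eomes, 0.007 after centring), -0.201 to 0.615 (Chst2) and -0.415 to 0.131 (Reln). For the hormone-treated arrays they were -0.386 to 0.57 (Oasl2), -0.355 to 0.297 (Gas5), -0.018 to 0.518 (Aunip), -0.141 to 0.037 (Inha), -0.05 to 0.434 (Reln), -0.03 to 0.164 (Fshr) and -0.207 to 0.002 (Cyp11a1). Without the FSH 1 h arrays, Aunip was -0.001, Reln -0.093, Snora73a 0.252, Snora73b 0.303 and Gas5 0.323. Against saline, cetrorelix ranged from -0.374 to 0.321 for Gas5 (0.004 after quantile normalization) and -0.159 to 0.177 for Sf3b1 (-0.004 after quantile normalization, -0.228 with the block, -0.237 with saline IPs 1 to 3). Acyline against saline ranged from -0.031 to 0.469 for Adgrl2 and -0.178 to 0.153 for Myof (-0.239 with the block, -0.192 with saline IPs 1 to 3). The cause was not tested. Of the values for named genes, 1320 kept their direction and side of the threshold, 70 newly passed it, 16 no longer passed it and 36 turned sign. With 2 arrays a group, small differences were not detectable.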
